A study of Mus musculus with 22 samples.

Results

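The 42 genes described here act in G2 phase and in mitosis, from the cyclins and kinases that start division to the motors and cross-linkers that complete it. They were listed by name for that function, with earlier results of these data known. The counts below therefore describe this list and are not an independent test of it. A probe set that the platform annotation pairs with that gene alone was found for 38 of the 42 genes (50 probe sets of 12422). Ccnb1, Bub1b, Cdc25b and Hmmr have no such probe set. Probe sets were tested only in the brighter part of the array, from the middle mean log2 signal upward (7.67, a signal of 203). This left 32 member genes among 6211 tested probe sets of 4900 genes. Bub1, Aurka, Kif4, Kifc1, Cenpe and Tacc3 lay below that limit. Each gene is given by its brightest probe set unless another is named. A gene that is high at P6 alone can pass this limit, so counts below hold for the 32 tested genes and not for all 42.

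The arrays measured total RNA of whole back skin of CB6F1 mice, either wild type or carrying the K14-DN-Clim transgene. CLIM proteins (also called Ldb) are cofactors of LIM-domain transcription factors. The transgene makes a version that blocks them, and the keratin 14 promoter drives it in basal keratinocytes, so that most other cells of the skin do not express it. Postnatal day 6 (P6) had 5 arrays of each genotype, and P14 and P23 had 3 of each. P6 and P14 fall in the first growth of the hair follicles and P23 in the first rest, telogen, and the transgenic mice were compared with wild-type littermates. No label ties an array to one mouse, so p-values measure the spread between these arrays, which may be in part technical.

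The probe sets of Krt5, Krt14 and Krt15, which mark basal keratinocytes, were dim (percentiles 23.7, 19.0 and 1.39 of mean signal), so the cells that carry the transgene were checked by other basal markers, Itga6, Itgb4, Col17a1 and Trp63, while 8 hair shaft keratins and 6 hair matrix markers were bright enough to test. The array medians ran from 7.56 to 7.81 (log2). One array stood apart: the signals of DN-CLIM P6 replicate 5 correlated with those of its group at a mean of 0.923, against 0.954 to 0.982 for the other 21 arrays. The counts of members that fell from P6 in DN-CLIM skin are given with and without it. Most other counts that use it are given with it alone. In whole tissue, fewer dividing cells and less RNA of a gene in each cell cannot be told apart.

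A cell that is about to divide builds up cyclin B with the kinase Cdk1, and their activity starts chromosome condensation and the assembly of the spindle. A checkpoint made of Mad2 and Bub proteins holds back Cdc20 until the chromosomes are attached, after which the anaphase-promoting complex destroys cyclin B and the cell divides. Transcripts of these genes are high from G2 phase to mitosis and low in resting cells. In growing hair follicles, the matrix at the base of the bulb is the main site of division, and it is lost when the follicle enters rest.

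Transcripts of most tested members fell with age in both genotypes, with a larger median change between P14 and P23 than between P6 and P14. In wild-type skin the mean log2 signal over the 32 tested members lay between 9.58 and 9.77 on the P6 arrays, from 8.98 to 9.18 at P14 and from 8.03 to 8.29 at P23. In DN-CLIM skin it lay from 9.53 to 9.63, from 9.09 to 9.22 and from 8.01 to 8.21. The ages did not overlap in either genotype, whereas the genotypes overlapped at P6, P14 and P23. Between the genotypes, no member passed the test at any age.

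From P6 to P14 in wild-type skin 19 of the 32 members fell, against 11.3% of all tested probe sets called lower in that comparison (limma, Benjamini-Hochberg adjusted p under 0.05 over 6211 probe sets). The members' median change was -0.53 on the log2 scale, against -0.01 for all tested probe sets. From P14 to P23 in wild-type skin 23 of 32 fell (27.1% of all probe sets), with a median of -0.999. From P6 to P23 in wild-type skin 29 of 32 fell (28.3% of all probe sets), with a median of -1.54. None of the 32 rose in any of these comparisons, in which 9.43%, 27% and 25.7% of all probe sets rose. The comparisons of one genotype share arrays, so their calls are not independent of each other. How many of all probe sets have ages that do not overlap was not counted. A lack of overlap between ages, given below for single members, describes the arrays and is not a test.

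In DN-CLIM skin 14 of 32 members fell from P6 to P14 (14.7% of all probe sets), with a median of -0.47. That count was 9 without DN-CLIM P14 replicate 2 and 16 without DN-CLIM P6 replicate 5. From P14 to P23 in DN-CLIM skin 25 of 32 fell (27.2% of all probe sets), with a median of -1.05. From P6 to P23 in DN-CLIM skin 29 of 32 fell (28.2% of all probe sets), with a median of -1.58, also without replicate 5, when the median was -1.60. In DN-CLIM skin, too, no member rose.

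**Figure D1:**
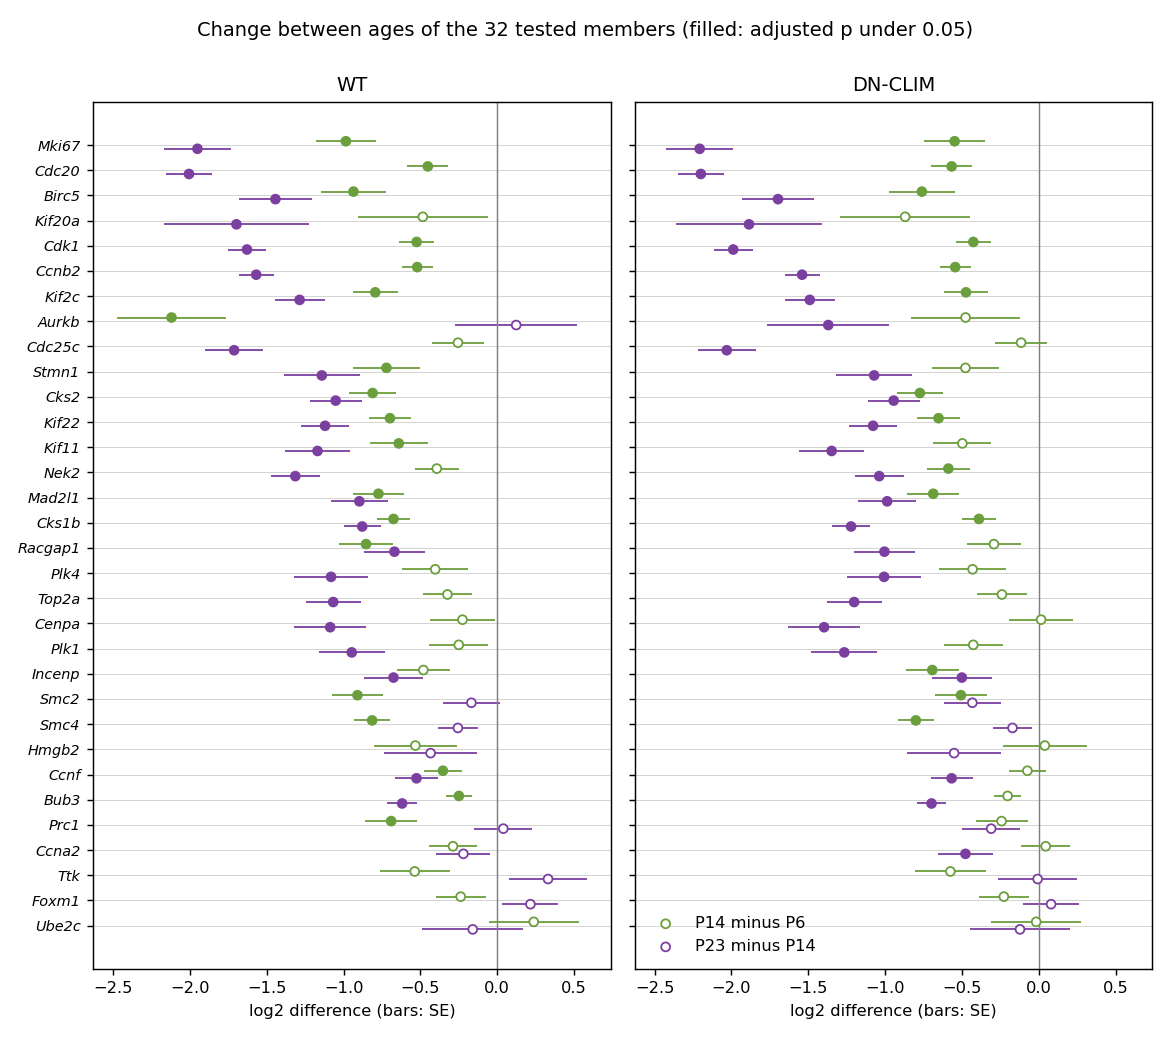
Log2 difference of each tested member between P6 and P14 (green) and between P14 and P23 (purple) in wild-type (left) and DN-CLIM (right) skin, with bars of 1 SE. Filled points passed the test (adjusted p under 0.05). Most purple points lie to the left of the green ones of the same gene, down to -2.01 for Cdc20 in wild-type skin, while Smc2, Smc4, Prc1 and Aurkb are called only in the earlier interval in wild-type skin.

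Because the members moved together, their promoters were read for the 2 short sequences known for genes of this phase. The cell cycle genes homology region (CHR, TTTGAA or TTCGAA) is bound by the complex that represses these genes in resting cells and by the B-Myb and Foxm1 complexes that activate them in G2. CCAAT boxes upstream of it bind the factor NF-Y. RefSeq promoter windows (GRCm38.p6, 250 bases before to 50 after the start used by that table) were present for 34 of the 42 members, as 36 windows. On either strand, a CHR was found in 26 of the 34 (76.5%), against 20.2% of 17492 protein-coding genes with windows of the same length. A CCAAT was found in 29 (85.3%), against 42.3%, and both together in 25 (73.5%), against 8.22%. The motifs were searched separately, and a CCAAT can share its last base with a CHR that follows it. Birc5, Mad2l1, Plk4 and Tacc3 have neither motif in their windows. In 21 of the 36 windows the start used is the 5′ end of the annotated gene. The presence or lack of a motif and its distance from the start therefore hold for the window used.

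The 100 bases before the start are shown for the 7 members that fell from P14 to P23 in wild-type skin and have a CHR with a CCAAT upstream of it in that stretch. Hmgb2, Ube2c and Prc1, which did not pass in that interval, have the same arrangement there and are not shown. The 7 are ordered by how far they fell in wild-type skin from P14 to P23, from Cdc20 (-2.01) to Bub3 (-0.62). Each reads 5′ to 3′ on the gene's own strand, with CCAAT (or ATTGG, its other strand) and CHR (or TTCAAA, its other strand) in capitals.
Cdc20 (chr4:118437344-118437443, minus strand): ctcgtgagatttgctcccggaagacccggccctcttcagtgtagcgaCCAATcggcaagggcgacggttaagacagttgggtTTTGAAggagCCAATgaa
Cdk1 (chr10:69352913-69353012, minus strand): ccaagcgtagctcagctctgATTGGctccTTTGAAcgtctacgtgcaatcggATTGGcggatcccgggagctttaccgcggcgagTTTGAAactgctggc
Kif11 (chr19:37376282-37376381, plus strand): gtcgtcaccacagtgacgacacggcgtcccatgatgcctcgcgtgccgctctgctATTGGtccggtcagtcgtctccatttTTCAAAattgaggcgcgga
Kif22 (chr7:127042421-127042520, minus strand): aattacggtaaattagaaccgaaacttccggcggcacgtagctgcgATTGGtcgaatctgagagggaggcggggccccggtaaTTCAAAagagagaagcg
Top2a (chr11:99024190-99024289, minus strand): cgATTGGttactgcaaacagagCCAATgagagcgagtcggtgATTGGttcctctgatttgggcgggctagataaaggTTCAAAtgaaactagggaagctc
Cks1b (chr3:89418292-89418391, minus strand): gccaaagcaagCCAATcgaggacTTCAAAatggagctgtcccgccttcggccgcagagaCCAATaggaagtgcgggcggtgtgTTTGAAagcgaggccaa
Bub3 (chr7:131560270-131560369, plus strand): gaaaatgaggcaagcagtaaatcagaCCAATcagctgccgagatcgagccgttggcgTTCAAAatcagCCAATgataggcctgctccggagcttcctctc

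Between the CHR nearest the start and the nearest CCAAT before it lay 30 bases in Cdc20 and Top2a, 28 in Cdk1, 21 in Kif11, 32 in Kif22, 19 in Cks1b and 26 in Bub3. A match to these letters is a description of the window and not a site shown to be bound. Members with and without the motif both fell. Of the members with a promoter entry that fell from P14 to P23 in wild-type skin, 14 of 19 had a CHR, and of the tested members that did not fall, 5 of 5 had one. The median change in that interval was -0.95 over the 19 tested members with a CHR and -1.08 over the 5 without.

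**Figure D2:**
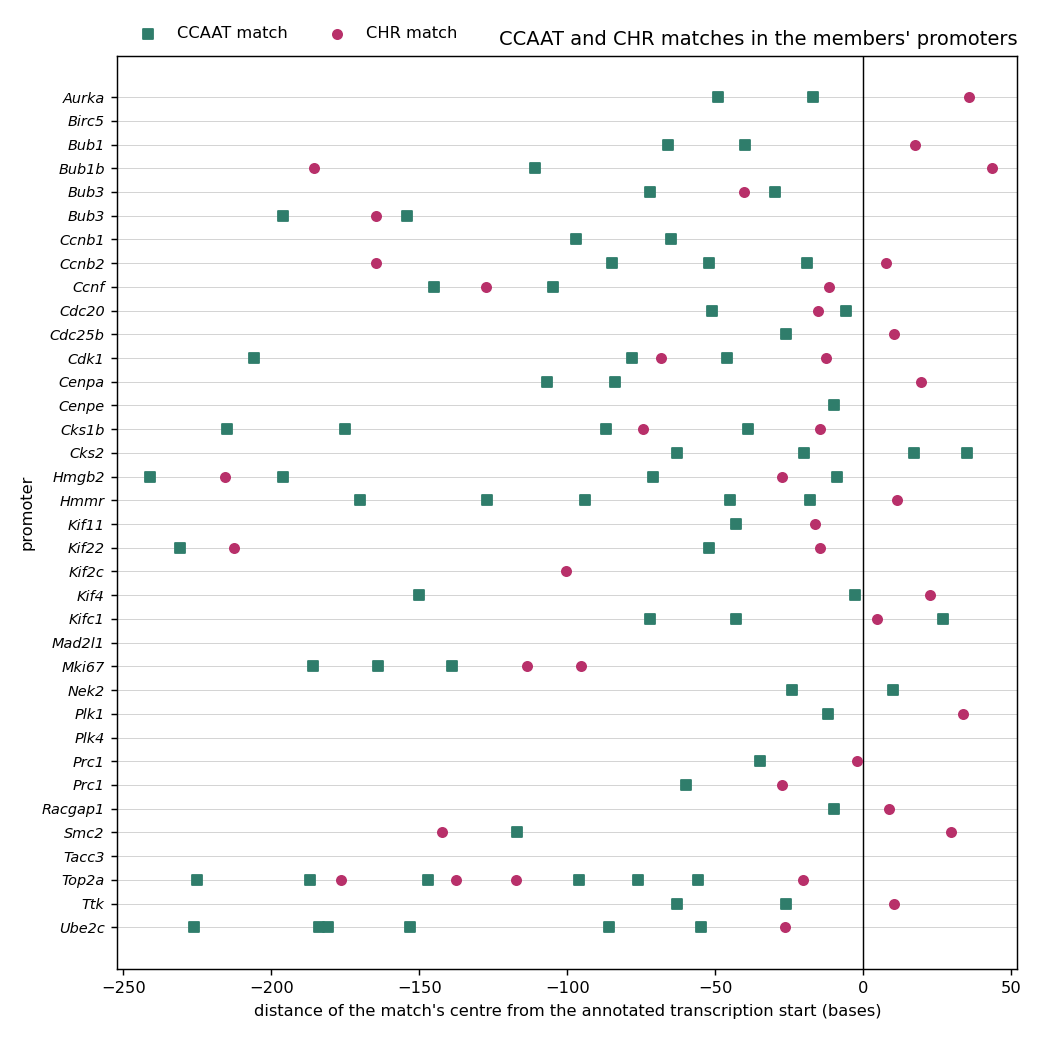
Position of CCAAT (green squares) and CHR (magenta circles) matches on either strand in the 36 promoter windows of 34 members, in bases from the start used by the RefSeq table (0). CHR matches gather near the start, with CCAAT matches mostly upstream of them, and 4 members have neither.

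The kinase Cdk1 and its partners fell in both genotypes. Of the 7 tested genes in this group of 9, 6 fell from P14 to P23 in wild-type skin and 7 in DN-CLIM skin, with medians of -1.05 and -1.22. Of all tested probe sets, 27.1% and 27.2% fell. Cdk1 itself, which drives entry into mitosis, read 10.12, 10.39, 10.30, 10.50 and 10.47 at P6, 9.84, 9.77 and 9.89 at P14, then 8.25, 8.26 and 8.11 at P23 in wild-type skin. On the DN-CLIM arrays Cdk1 read 10.38, 10.24, 10.47, 10.24 and 10.31 at P6, 9.71, 9.79 and 10.20 at P14, then 7.84, 8.02 and 7.88 at P23. In both genotypes each age lay wholly below the one before. The wild-type change was -0.52 (SE 0.11, adjusted p = 0.00181) from P6 to P14 and -1.63 (SE 0.13, adjusted p = 4.4e-10) from P14 to P23, the latter a 3.09-fold fall. In DN-CLIM skin the change was -0.43 (SE 0.11, adjusted p = 0.00795) and -1.99 (SE 0.13, adjusted p = 1.8e-11), and the first of these did not pass without DN-CLIM P14 replicate 1 (adjusted p = 0.0617) or 2 (0.0517).

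Ccnb2, cyclin B2, read 11.56, 11.60, 11.59, 11.47 and 11.62 at P6, 11.09, 10.98 and 11.06 at P14, then 9.38, 9.64 and 9.41 at P23 in wild-type skin. DN-CLIM arrays gave Ccnb2 values of 11.34, 11.51, 11.39, 11.51 and 11.87 at P6, 10.86, 11.02 and 11.06 at P14, then 9.46, 9.36 and 9.51 at P23. The wild-type arrays of one age were within 0.27 of each other and no pair of ages overlapped, and the change from P14 to P23 was -1.57 (SE 0.11, adjusted p = 1.55e-10) in wild-type and -1.54 (SE 0.11, adjusted p = 2.41e-10) in DN-CLIM skin. Cdc25c, the phosphatase that removes inhibitory phosphates from Cdk1, behaved differently in the first interval. It read 9.49, 9.35, 9.52, 9.62 and 9.32 at P6, 9.21, 9.12 and 9.29 at P14, then 7.26, 7.80 and 7.41 at P23 in wild-type skin and 9.40, 9.65, 9.45, 8.84 and 9.59 at P6, 9.29, 9.28 and 9.24 at P14, then 7.41, 6.85 and 7.46 at P23 in DN-CLIM skin. In wild-type skin the ages were apart, though P14 lay close under P6, and in DN-CLIM skin P6 and P14 overlapped. Its change from P6 to P14 did not pass in wild-type (-0.26, SE 0.17, adjusted p = 0.314) or DN-CLIM skin (-0.11, SE 0.17, adjusted p = 0.651), and its change from P14 to P23 was -1.71 (SE 0.19, adjusted p = 1.13e-07) and -2.03 (SE 0.19, adjusted p = 9.23e-09). The dimmer of its 2 probe sets, which was not tested, was lower at P14 than at P6 on every array of both genotypes (6.53 to 6.96 against 7.76 to 8.23 in wild-type skin), so the 2 differ on the first interval.

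Cks1b and Cks2, small subunits that bind Cdk1, fell in both intervals and both genotypes. Cks1b read 10.65, 10.88, 10.72, 10.78 and 10.75 at P6, 10.06, 10.06 and 10.12 at P14, then 8.96, 9.41 and 9.23 at P23 in wild-type skin. In DN-CLIM skin Cks1b read 10.56, 10.64, 10.47, 10.61 and 10.23 at P6, 9.99, 10.26 and 10.10 at P14, then 8.81, 8.90 and 8.97 at P23. The ages of Cks1b were apart, except for P6 and P14 in DN-CLIM skin. The wild-type changes of Cks1b were -0.68 (SE 0.11, adjusted p = 9.33e-05) and then -0.88 (SE 0.12, adjusted p = 2.63e-06). The DN-CLIM fall from P6 to P14 (-0.39, SE 0.11, adjusted p = 0.0109) did not pass without DN-CLIM P14 replicate 1 (adjusted p = 0.0643). Cks2 read 9.48, 9.71, 9.54, 9.69 and 9.48 at P6, 8.59, 8.94 and 8.78 at P14, then 7.40, 7.81 and 7.95 at P23 in wild-type skin. In DN-CLIM skin Cks2 read 9.64, 9.74, 9.26, 9.56 and 9.95 at P6, 8.99, 8.85 and 8.72 at P14, then 7.79, 7.79 and 8.15 at P23. No Cks2 value of a later age reached one of an earlier age in either genotype.

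Ccnf, cyclin F, a subunit of a ubiquitin ligase, and Ccna2, cyclin A2, which partners Cdk in S and G2 phase, fell less. Ccnf read 9.39, 9.08, 9.05, 9.24 and 9.26 at P6, 8.77, 8.91 and 8.87 at P14, then 8.37, 8.60 and 8.02 at P23 in wild-type and 9.001, 8.88, 9.15, 9.0 and 8.92 at P6, 8.86, 8.98 and 8.90 at P14, then 8.41, 8.41 and 8.23 at P23 in DN-CLIM skin. P23 lay below P14 in both genotypes, and P14 overlapped P6 in DN-CLIM skin alone. Its change from P14 to P23 was -0.53 (SE 0.14, adjusted p = 0.00265) in wild-type and -0.57 (SE 0.14, adjusted p = 0.00139) in DN-CLIM skin. The wild-type fall from P6 to P14 (-0.35, SE 0.12, adjusted p = 0.0439) did not pass when any 1 of 6 arrays was left out, with adjusted p up to 0.158. Ccna2 read 10.11, 10.13, 10.36, 10.86 and 10.38 at P6, 10.05, 10.16 and 10.03 at P14, then 9.85, 9.95 and 9.79 at P23 in wild-type and 10.06, 9.99, 10.56, 10.62 and 10.20 at P6, 10.56, 10.13 and 10.30 at P14, then 9.74, 9.87 and 9.96 at P23 in DN-CLIM skin, a narrow span of about 1 log2 unit over the 22 arrays. P6 and P14 overlapped, and P23 lay below both. It fell from P6 to P23 in wild-type skin (-0.51, SE 0.16, adjusted p = 0.00935) and not past the threshold in either single interval. In DN-CLIM skin it passed from P14 to P23 (-0.48, SE 0.18, adjusted p = 0.0263) and from P6 to P23 (-0.43, SE 0.16, adjusted p = 0.0244). Both were lost without DN-CLIM P23 replicate 1 (adjusted p = 0.0879 and 0.0982) or 2 (0.0538 and 0.0566), the former also without P14 replicate 1 (0.125) and the latter without P6 replicate 3 (0.0622) or 4 (0.066).

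Among the mitotic kinases, 3 of 4 tested genes fell from P14 to P23 in each genotype (27.1% and 27.2% of all tested probe sets), and Ttk did not. Nek2, which separates the centrosomes, read 8.98, 9.28, 9.09, 9.43 and 9.34 at P6, 8.82, 8.90 and 8.77 at P14, then 7.31, 7.76 and 7.48 at P23 in wild-type skin. In DN-CLIM skin Nek2 read 9.14, 9.004, 9.16, 9.31 and 9.50 at P6, 8.48, 8.67 and 8.75 at P14, then 7.77, 7.37 and 7.65 at P23. All 3 ages were apart in both genotypes, and the change from P14 to P23 was -1.31 (SE 0.16, adjusted p = 4.19e-07) in wild-type skin. The wild-type change of Nek2 from P6 to P14 did not pass (adjusted p = 0.053), though it passed under 4 of 15 alternatives. Plk4, the kinase of centriole duplication, read 8.91, 9.84, 9.36, 9.07 and 9.23 at P6, 8.87, 8.84 and 8.94 at P14, then 7.68, 7.35 and 8.37 at P23 in wild-type and 8.93, 9.07, 8.96, 9.01 and 9.45 at P6, 8.69, 8.30 and 8.96 at P14, then 7.87, 7.75 and 7.32 at P23 in DN-CLIM skin. P6 and P14 overlapped in both genotypes, and P23 lay below both, with changes from P14 of -1.08 (SE 0.24, adjusted p = 0.000692) and -1.01 (SE 0.24, adjusted p = 0.00134).

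Plk1, a kinase needed from mitotic entry to cytokinesis, had 3 tested probe sets. The brightest read 9.62, 9.83, 10.33, 9.68 and 9.34 at P6, 9.64, 9.47 and 9.43 at P14, then 8.74, 8.47 and 8.48 at P23 in wild-type and 9.76, 9.90, 9.64, 10.08 and 9.86 at P6, 9.28, 9.55 and 9.44 at P14, then 8.49, 7.55 and 8.42 at P23 in DN-CLIM skin. Its P23 arrays lay below those of P14 in both genotypes, with differences of -0.95 (SE 0.22, adjusted p = 0.000827) and -1.27 (SE 0.22, adjusted p = 3.95e-05). Another, with the suffix f, fell by 1.56 (SE 0.22, adjusted p = 4.08e-06) in wild-type skin. The remaining one, with the same suffix, was level in wild-type skin, at -0.02 (SE 0.28, adjusted p = 0.957), with arrays between 7.73 and 8.74 at P14 and between 8.14 and 8.73 at P23. In DN-CLIM skin it fell with the others, by 0.70 (SE 0.28, adjusted p = 0.0387). The suffix f marks probe sets that may match a family of related sequences, and g, which the brightest one carries, probes shared by a group of transcripts. Ttk (Mps1), a kinase of the spindle checkpoint, read 7.29, 8.18, 8.34, 7.86 and 8.14 at P6, 7.51, 7.66 and 7.11 at P14, then 7.67, 7.66 and 7.93 at P23 in wild-type and 8.25, 7.78, 8.17, 7.80 and 7.94 at P6, 7.36, 7.56 and 7.31 at P14, then 7.40, 6.94 and 7.88 at P23 in DN-CLIM skin. The wild-type P23 arrays of Ttk lay at or just above the highest of P14 (0.33, SE 0.26, adjusted p = 0.287). Its only call was from P6 to P23 in DN-CLIM skin (-0.58, SE 0.23, adjusted p = 0.0356), which did not pass without DN-CLIM P6 replicate 1 (adjusted p = 0.0761) or 3 (0.0691) or P23 replicate 1 (0.0818) or 2 (0.256).

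The group of the checkpoint and anaphase genes held the member with the largest wild-type fall of that interval. Cdc20, which activates the anaphase-promoting complex and is the target of the checkpoint, read 11.34, 10.97, 11.19, 11.47 and 11.47 at P6, 11.01, 10.66 and 10.84 at P14, then 8.69, 8.99 and 8.81 at P23 in wild-type skin. DN-CLIM arrays gave Cdc20 values of 11.37, 11.23, 11.52, 11.60 and 11.71 at P6, 10.64, 10.99 and 11.12 at P14, then 8.73, 8.71 and 8.72 at P23. The P23 arrays of both genotypes, between 8.69 and 8.99, lay far below the lowest earlier array, at 10.64. The change from P14 to P23 was -2.01 (SE 0.15, adjusted p = 2.18e-10) in wild-type skin, a 4.02-fold fall, and -2.20 (SE 0.15, adjusted p = 5.57e-11) in DN-CLIM skin, a 4.59-fold fall. The smaller wild-type fall from P6 to P14 (-0.45, SE 0.13, adjusted p = 0.0185) did not pass without wild-type P14 replicate 2 (adjusted p = 0.115) or 3 (0.0576).

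Mad2l1 (Mad2) and Bub3 belong to the checkpoint that restrains Cdc20. Mad2l1 read 9.62, 9.63, 9.54, 9.33 and 9.48 at P6, 8.68, 8.88 and 8.68 at P14, then 7.80, 7.59 and 8.16 at P23 in wild-type and 9.38, 9.29, 9.52, 9.24 and 9.44 at P6, 8.35, 8.74 and 8.97 at P14, then 7.80, 7.24 and 8.06 at P23 in DN-CLIM skin. All ages were apart in both genotypes. The wild-type changes were -0.77 (SE 0.17, adjusted p = 0.00197) from P6 to P14 and -0.90 (SE 0.19, adjusted p = 0.000349) from P14 to P23. Bub3 read 11.14, 11.16, 11.29, 11.20 and 11.06 at P6, 10.96, 10.90 and 10.90 at P14, then 10.21, 10.38 and 10.31 at P23 in wild-type and 11.34, 11.05, 11.19, 11.18 and 11.16 at P6, 11.07, 10.91 and 10.95 at P14, then 10.12, 10.34 and 10.39 at P23 in DN-CLIM skin. Its ages were apart, except that P6 and P14 met in DN-CLIM skin, and from P14 to P23 its change was -0.62 (SE 0.10, adjusted p = 1.2e-05) and -0.70 (SE 0.10, adjusted p = 2.61e-06). The wild-type fall of Bub3 from P6 to P14 (-0.25, SE 0.09, adjusted p = 0.0422) did not pass when any 1 of 7 arrays was left out (adjusted p up to 0.123). Ube2c, the ubiquitin-conjugating enzyme of the anaphase-promoting complex, passed in no comparison. It read 7.61, 8.10, 7.75, 7.53 and 7.15 at P6, 8.37, 8.13 and 7.10 at P14, then 7.96, 7.37 and 7.79 at P23 in wild-type and 7.34, 7.77, 8.14, 8.11 and 8.14 at P6, 7.95, 8.09 and 7.61 at P14, then 8.05, 8.17 and 7.06 at P23 in DN-CLIM skin, with overlap between all ages, and its probe set carries the suffix r, for probes that did not meet all design rules.

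The chromosomal passenger complex, which corrects wrong attachments and guides cytokinesis, is represented by Birc5 (survivin), Incenp and the kinase Aurkb. Birc5 read 9.38, 9.70, 9.21, 9.59 and 8.58 at P6, 8.26, 8.35 and 8.46 at P14, then 6.63, 6.92 and 7.18 at P23 in wild-type skin. In DN-CLIM skin Birc5 read 8.98, 9.05, 9.12, 9.28 and 9.57 at P6, 8.54, 8.19 and 8.59 at P14, then 6.59, 6.53 and 7.11 at P23. Its 3 ages were apart in both genotypes, and from P6 to P23 it fell 5.20-fold (-2.38, SE 0.21, adjusted p = 3.97e-09) in wild-type and 5.49-fold (-2.46, SE 0.21, adjusted p = 2.31e-09) in DN-CLIM skin. The DN-CLIM fall of Birc5 from P6 to P14 (-0.76, SE 0.21, adjusted p = 0.0112) did not pass without DN-CLIM P14 replicate 2 (adjusted p = 0.0739). Incenp, the scaffold of the complex, read 8.59, 8.75, 8.65, 8.44 and 8.50 at P6, 8.10, 8.30 and 7.92 at P14, then 7.46, 7.70 and 7.13 at P23 in wild-type and 7.97, 8.40, 8.42, 8.57 and 8.53 at P6, 7.88, 7.81 and 7.37 at P14, then 7.25, 6.95 and 7.36 at P23 in DN-CLIM skin. Its ages, too, were apart in both genotypes. The wild-type change of Incenp from P6 to P14 did not pass (adjusted p = 0.0537), though it passed under 3 of 15 alternatives. Incenp fell from P6 to P23, with differences of -1.16 (SE 0.17, adjusted p = 8.15e-06) and -1.19 (SE 0.17, adjusted p = 5.26e-06). In DN-CLIM skin its fall from P6 to P14 (-0.69, SE 0.17, adjusted p = 0.00553) did not pass without DN-CLIM P14 replicate 3 (adjusted p = 0.0505), and that from P14 to P23 (-0.50, SE 0.19, adjusted p = 0.0343) without P14 replicate 1 (0.128) or 2 (0.104) or P23 replicate 1 (0.0542) or 2 (0.149).

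Aurkb had uneven arrays in wild-type skin. It read 8.78, 9.21, 9.20, 9.34 and 9.29 at P6, 8.37, 6.25 and 6.52 at P14, then 6.11, 7.59 and 7.80 at P23 in wild-type skin. In DN-CLIM skin Aurkb read 9.39, 9.18, 9.13, 9.52 and 9.26 at P6, 8.95, 8.82 and 8.69 at P14, then 7.22, 7.45 and 7.68 at P23. At P14 wild-type replicates 2 and 3 were at 6.25 and 6.52, while replicate 1 and all 3 DN-CLIM arrays were at 8.37 or above. At P23 wild-type replicate 1 was low as well. Aurkb fell from P6 to P14 in wild-type skin (-2.12, SE 0.36, adjusted p = 0.000167) and from P14 to P23 in DN-CLIM skin (-1.37, SE 0.40, adjusted p = 0.00608), and over the whole span in both (-2.00, SE 0.36, adjusted p = 6.42e-05 and -1.85, SE 0.36, adjusted p = 0.000148). Its wild-type change from P14 to P23 was 0.12 (SE 0.40, adjusted p = 0.81), and without wild-type P14 replicate 1 it was a rise of 0.78 (adjusted p = 0.048). Cenpa, the histone H3 variant of centromeres, read 9.13, 9.22, 9.05, 9.41 and 9.30 at P6, 9.15, 9.33 and 8.50 at P14, then 7.87, 8.29 and 7.56 at P23 in wild-type and 9.04, 9.09, 9.07, 9.12 and 10.01 at P6, 9.19, 9.31 and 9.34 at P14, then 7.95, 7.67 and 8.02 at P23 in DN-CLIM skin. Its P6 and P14 arrays overlapped in both genotypes, and it fell from P14 to P23, with differences of -1.09 (SE 0.23, adjusted p = 0.000484) and -1.40 (SE 0.23, adjusted p = 3.26e-05).

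**Figure D3:**
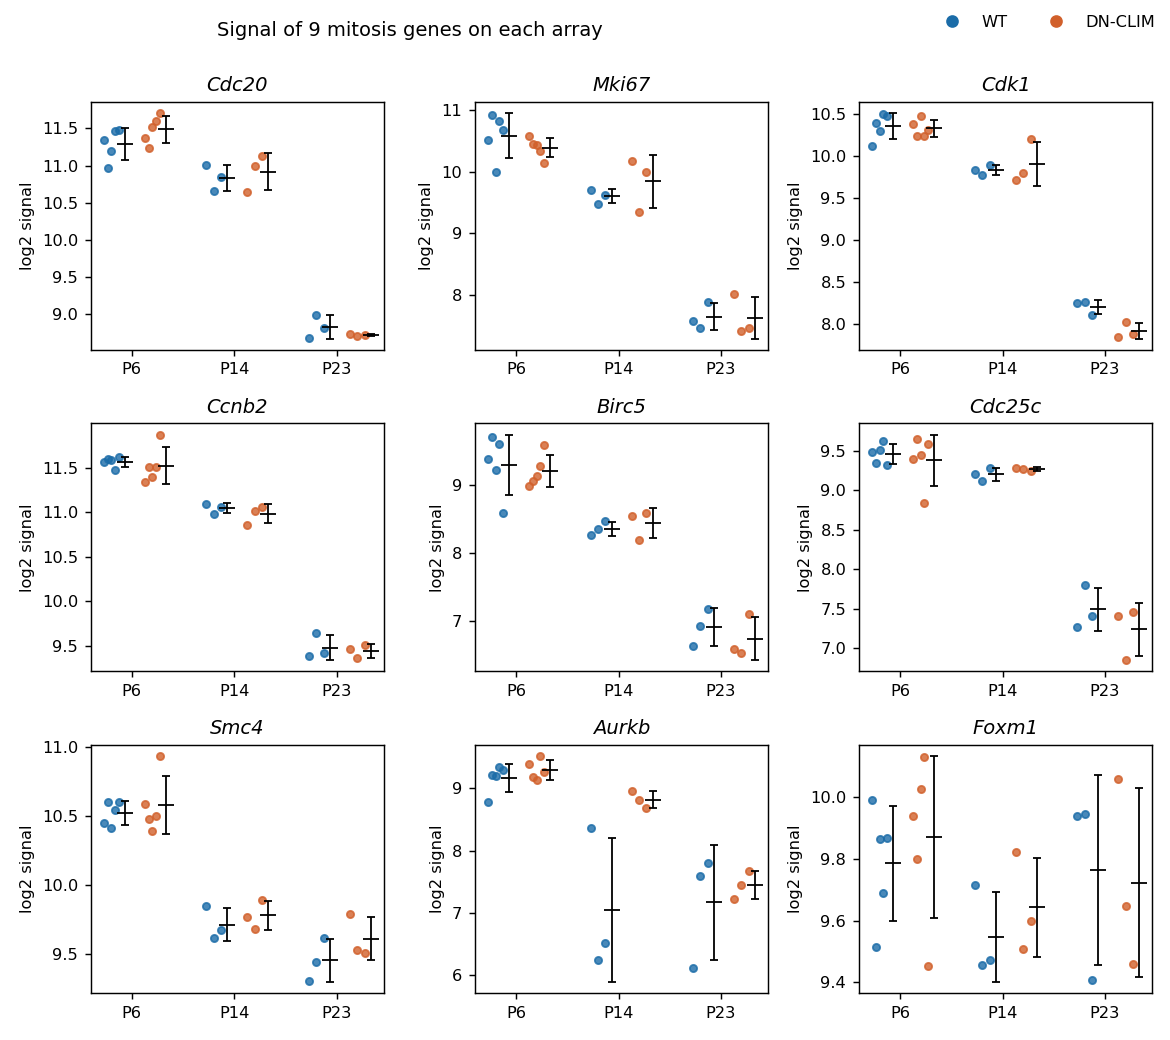
Log2 signal of 9 members on each of the 22 arrays at P6, P14 and P23 in wild-type (blue) and DN-CLIM (orange) skin, each panel on its own scale, with the mean and SD of each group beside its points. Cdc20, Mki67, Cdk1, Ccnb2, Birc5 and Cdc25c are lowest at P23, Smc4 is already low at P14, Aurkb is split among the wild-type P14 arrays, and Foxm1 overlaps at all ages.

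Of the 7 tested genes of the spindle and of cytokinesis, 6 fell from P14 to P23 in each genotype (27.1% and 27.2% of all tested probe sets). Their medians were -1.14 and -1.08. Kif11, the motor that pushes the spindle poles apart, read 8.50, 8.75, 8.62, 8.60 and 8.89 at P6, 8.23, 8.06 and 7.82 at P14, then 7.22, 6.53 and 6.85 at P23 in wild-type and 8.59, 8.53, 8.38, 8.70 and 8.01 at P6, 7.94, 7.67 and 8.22 at P14, then 6.41, 6.85 and 6.54 at P23 in DN-CLIM skin. P23 lay below P14 in both genotypes. Its change from P14 to P23 was -1.17 (SE 0.21, adjusted p = 7.48e-05) and -1.35 (SE 0.21, adjusted p = 1.46e-05). From P6 to P14 it passed in wild-type skin (-0.64, SE 0.19, adjusted p = 0.0189), though not without wild-type P14 replicate 2 (adjusted p = 0.053) or 3 (0.108), and in DN-CLIM skin it did not pass (-0.50, SE 0.19, adjusted p = 0.0557), except without P6 replicate 5 (0.0164) or P14 replicate 3 (0.0401), with quantile normalization (0.025), with 50 added to each signal (0.0407) or with array weights (0.0455).

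Kif2c, a kinesin that shortens microtubules at centromeres, read 8.81, 9.01, 9.18, 9.09 and 8.78 at P6, 8.31, 8.19 and 8.04 at P14, then 6.81, 7.03 and 6.85 at P23 in wild-type and 9.06, 8.90, 8.72, 8.80 and 9.03 at P6, 8.20, 8.33 and 8.76 at P14, then 7.01, 6.93 and 6.88 at P23 in DN-CLIM skin. The ages were apart, except for 1 DN-CLIM P14 array at 8.76 that reached into the P6 range. From P6 to P23 it fell 4.23-fold (-2.08, SE 0.14, adjusted p = 6.69e-11) and 3.90-fold (-1.96, SE 0.14, adjusted p = 1.8e-10). Its DN-CLIM fall from P6 to P14 (-0.47, SE 0.14, adjusted p = 0.0188) did not pass without P14 replicate 1 (adjusted p = 0.116) or 2 (0.0862). Kif22, a kinesin on chromosome arms, read 11.07, 11.31, 11.01, 10.70 and 10.89 at P6, 10.39, 10.41 and 10.10 at P14, then 8.83, 9.35 and 9.36 at P23 in wild-type and 10.95, 10.97, 10.74, 10.82 and 11.15 at P6, 10.14, 10.33 and 10.35 at P14, then 9.08, 9.14 and 9.36 at P23 in DN-CLIM skin. All 3 ages were apart in both genotypes, and from P14 to P23 the change of Kif22 was -1.12 (SE 0.16, adjusted p = 2.83e-06) and -1.08 (SE 0.16, adjusted p = 4.82e-06). Kif20a, a kinesin of the central spindle, read 8.94, 9.59, 8.58, 8.33 and 8.67 at P6, 8.81, 7.46 and 8.75 at P14, then 6.14, 6.54 and 7.25 at P23 in wild-type and 9.24, 8.77, 9.36, 8.92 and 8.84 at P6, 8.24, 7.71 and 8.52 at P14, then 4.78, 6.69 and 7.34 at P23 in DN-CLIM skin. Its P23 arrays spread from 4.78 to 7.34 in DN-CLIM skin and lay below every P14 array in both genotypes. Its change from P14 was -1.70 (SE 0.47, adjusted p = 0.00449) in wild-type and -1.89 (SE 0.47, adjusted p = 0.00195) in DN-CLIM skin.

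Prc1 and Racgap1 build the central spindle, on which the cell is cut in 2. Racgap1 read 8.99, 8.76, 9.14, 8.91 and 8.96 at P6, 8.35, 7.94 and 8.01 at P14, then 6.98, 7.73 and 7.58 at P23 in wild-type and 8.49, 8.87, 8.59, 9.02 and 9.09 at P6, 8.64, 8.35 and 8.57 at P14, then 7.31, 7.45 and 7.79 at P23 in DN-CLIM skin. The wild-type ages were apart, and P6 and P14 overlapped in DN-CLIM skin. In wild-type skin it fell in both intervals (-0.85, SE 0.18, adjusted p = 0.00145 and -0.67, SE 0.20, adjusted p = 0.00724), the latter not without wild-type P23 replicate 1 (adjusted p = 0.0699). Prc1 read 9.31, 9.30, 9.27, 9.59 and 9.12 at P6, 8.80, 8.63 and 8.46 at P14, then 8.40, 8.76 and 8.85 at P23 in wild-type and 9.22, 9.03, 9.53, 9.24 and 8.60 at P6, 8.81, 8.94 and 8.89 at P14, then 8.34, 8.51 and 8.86 at P23 in DN-CLIM skin. P14 and P23 overlapped in both genotypes. In wild-type skin Prc1 fell from P6 to P14 (-0.69, SE 0.17, adjusted p = 0.00556) and was level from P14 to P23 (0.04, SE 0.19, adjusted p = 0.87). In DN-CLIM skin it passed only over the whole span (-0.55, SE 0.17, adjusted p = 0.00851), and not without P23 replicate 1 (adjusted p = 0.0653).

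Stmn1 (stathmin), which destabilises microtubules and is not restricted to mitosis, read 12.46, 12.78, 12.41, 12.47 and 12.53 at P6, 11.82, 11.88 and 11.72 at P14, then 10.39, 10.81 and 10.80 at P23 in wild-type and 12.48, 12.51, 12.49, 12.43 and 11.06 at P6, 11.77, 11.68 and 11.71 at P14, then 10.64, 10.57 and 10.72 at P23 in DN-CLIM skin. Array 5 of the DN-CLIM P6 group, the one that stood apart, was 1.37 below the next lowest of its group. From P14 to P23 Stmn1 fell, with differences of -1.14 (SE 0.25, adjusted p = 0.000494) and -1.07 (SE 0.25, adjusted p = 0.000909). The wild-type fall from P6 to P14 (-0.72, SE 0.22, adjusted p = 0.0233) did not pass without wild-type P6 replicate 2 or any 1 of the P14 arrays (adjusted p from 0.0539 to 0.0877). In DN-CLIM skin it was -0.48 (SE 0.22, adjusted p = 0.114), and -0.76 (adjusted p = 5.58e-06) without P6 replicate 5.

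The genes of chromosome structure did not all fall in the same interval. Mki67 (Ki-67), a coat protein of mitotic chromosomes and the common marker of dividing cells, read 10.51, 10.92, 10, 10.82 and 10.67 at P6, 9.70, 9.48 and 9.62 at P14, then 7.59, 7.47 and 7.89 at P23 in wild-type skin. In DN-CLIM skin Mki67 read 10.58, 10.45, 10.43, 10.34 and 10.15 at P6, 10.18, 9.36 and 9.99 at P14, then 8.03, 7.42 and 7.46 at P23. P23 lay below P14 in both genotypes, and P14 below P6 in wild-type skin. From P14 to P23 it fell 3.87-fold (-1.95, SE 0.22, adjusted p = 1.49e-07) and 4.62-fold (-2.21, SE 0.22, adjusted p = 2.59e-08). The DN-CLIM fall from P6 to P14 (-0.55, SE 0.20, adjusted p = 0.042) did not pass without any 1 of P6 replicates 1 to 4 or P14 replicates 2 and 3 (adjusted p from 0.0518 to 0.319). A second, dimmer Mki67 probe set with the suffix r did not fall, with wild-type means of 6.83 ± 0.32 (SD, n = 5), 7.09 ± 0.25 (n = 3) and 7.14 ± 0.36 (n = 3). Its DN-CLIM means were 6.55 ± 0.24 (n = 5), 7.67 ± 0.23 (n = 3) and 7.27 ± 0.39 (n = 3), with every P14 array above those of P6. Top2a, the topoisomerase that untangles sister chromatids, read 8.76, 9.04, 8.75, 9.11 and 8.93 at P6, 8.40, 8.82 and 8.56 at P14, then 7.59, 7.32 and 7.67 at P23 in wild-type and 8.78, 8.68, 8.96, 8.66 and 8.39 at P6, 8.47, 8.20 and 8.70 at P14, then 7.27, 7.02 and 7.48 at P23 in DN-CLIM skin. P6 and P14 overlapped and P23 lay below both, with differences from P14 of -1.07 (SE 0.18, adjusted p = 3.13e-05) and -1.20 (SE 0.18, adjusted p = 7.54e-06).

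Smc2 and Smc4, the core of condensin, passed the test from P6 to P14 but not from P14 to P23. Smc4 read 10.45, 10.60, 10.42, 10.54 and 10.60 at P6, 9.84, 9.61 and 9.67 at P14, then 9.30, 9.44 and 9.62 at P23 in wild-type skin. In DN-CLIM skin Smc4 read 10.59, 10.48, 10.39, 10.50 and 10.94 at P6, 9.77, 9.68 and 9.89 at P14, then 9.79, 9.53 and 9.51 at P23. P14 lay wholly below P6, and P23 overlapped P14, in both genotypes. The change from P6 to P14 was -0.81 (SE 0.12, adjusted p = 2.07e-05) in wild-type and -0.80 (SE 0.12, adjusted p = 2.76e-05) in DN-CLIM skin, while the change from P14 to P23 was -0.26 (SE 0.13, adjusted p = 0.0979) and -0.17 (SE 0.13, adjusted p = 0.272). The later wild-type change of Smc4 passed with quantile normalization (adjusted p = 0.0349) or array weights (0.0267). Smc2 read 9.22, 9.13, 8.73, 8.91 and 8.96 at P6, 8.18, 8.02 and 8.04 at P14, then 7.42, 7.91 and 8.39 at P23 in wild-type and 8.47, 8.67, 8.62, 8.80 and 8.78 at P6, 8.19, 7.98 and 8.32 at P14, then 7.79, 7.67 and 7.73 at P23 in DN-CLIM skin. P14 lay below P6 in both genotypes. Wild-type P23 spread around P14, while DN-CLIM P23 lay wholly below it. Its wild-type change was -0.91 (SE 0.17, adjusted p = 0.000421) from P6 to P14, with -0.17 (SE 0.19, adjusted p = 0.466) from P14 to P23. In DN-CLIM skin the fall from P6 to P14 (-0.51, SE 0.17, adjusted p = 0.028) did not pass without P6 replicate 4 (adjusted p = 0.0512) or P14 replicate 1 (0.0618) or 2 (0.139). It was also lost with array weights (0.0613) or the replicate block (0.0623). The change from P14 to P23 (-0.43, SE 0.19, adjusted p = 0.0554) passed without P14 replicate 2 (0.0426), with quantile normalization (0.0302) or with array weights (0.0172).

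Hmgb2, a DNA-bending protein not restricted to mitosis, read 8.42, 8.80, 8.52, 8.21 and 8.04 at P6, 7.88, 7.90 and 7.82 at P14, then 6.84, 7.57 and 7.89 at P23 in wild-type and 7.34, 7.89, 7.24, 8.53 and 8.33 at P6, 7.89, 8.03 and 7.80 at P14, then 7.37, 7.01 and 7.69 at P23 in DN-CLIM skin. DN-CLIM P6 arrays spread from 7.24 to 8.53, across those of P14. It passed only from P6 to P23 in wild-type skin (-0.97, SE 0.27, adjusted p = 0.0048), and not without wild-type P23 replicate 1 (adjusted p = 0.0619). In DN-CLIM skin its change was -0.51 (SE 0.27, adjusted p = 0.117), and it passed without P6 replicate 3 (adjusted p = 0.0395). Foxm1, the transcription factor that activates many of the other members, read 9.99, 9.52, 9.87, 9.69 and 9.87 at P6, 9.72, 9.46 and 9.47 at P14, then 9.94, 9.95 and 9.41 at P23 in wild-type and 9.94, 9.80, 10.03, 10.13 and 9.45 at P6, 9.82, 9.51 and 9.60 at P14, then 10.06, 9.65 and 9.46 at P23 in DN-CLIM skin. All ages overlapped, and from P6 to P23 it was at -0.02 (SE 0.16, adjusted p = 0.921) in wild-type skin. A dim probe set of Foxm1, below the limit for testing, had wild-type means of 6.47 ± 1.06 (SD, n = 5) at P6, 4.98 ± 0.30 (n = 3) at P14 and 4.18 ± 0.25 (n = 3) at P23. The tested one has the suffix g, and the arrays do not settle the direction of Foxm1. Suffixes that mark shared or irregular probes are also carried by the tested probe sets of Plk1 (g), Cdc25c (s), Kif20a (f), Kif22 and Hmgb2 (both r), whose falls are given above.

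Other members with more than 1 probe set had dimmer ones that were not tested. Bub3 had one at DN-CLIM means of 4.38, 5.61 and 5.24 at P6, P14 and P23, and Stmn1 one at wild-type means of 4.15, 3.15 and 3.99, neither of which went down at each age like the tested one. The second set of Incenp was at 7.49, 7.73 and 6.67 in DN-CLIM skin, higher at P14 than at P6. In wild-type skin it went down at each age (7.57, 7.43 and 6.94). That of Kif20a went down at each age in DN-CLIM (7.44, 5.95 and 5.27) and wild-type skin (7.55, 7.04 and 5.13).

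Of the 6 members under the limit for testing, 4 were lower at P23 than at P6 in wild-type skin when every probe set was fitted with no limit. The share of all probe sets called lower in that fit was not counted, so this count describes these members alone. Tacc3, a spindle protein, was at -2.64 (SE 0.55, adjusted p = 0.00058 in limma), Bub1, a checkpoint kinase, at -1.80 (SE 0.26, adjusted p = 7.91e-06), Aurka, the kinase of the spindle poles, at -1.43 (SE 0.29, adjusted p = 0.000369) and Kif4, a chromosome-bound kinesin, at -0.76 (SE 0.21, adjusted p = 0.00577). Cenpe (-1.41, SE 0.66, adjusted p = 0.106) and Kifc1 (-0.15, SE 0.43, adjusted p = 0.83), both kinesins, did not pass in wild-type skin. In DN-CLIM skin Tacc3, Bub1, Aurka and Kif4 passed from P6 to P23 in the same fit. There Cenpe passed narrowly (-1.70, SE 0.66, adjusted p = 0.0493), and Kifc1 did not pass (-0.59, SE 0.43, adjusted p = 0.306).

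Other genes of the cell cycle, from lists with no member in them, fell in part. Of 13 tested genes of a list of further mitosis genes, 4, 7 and 10 fell from P6 to P14, P14 to P23 and P6 to P23 in wild-type skin, and 0 rose. Cdca8, the borealin subunit of the passenger complex, fell from P14 to P23 by 1.47 (SE 0.12, adjusted p = 7.7e-10), and Kif23, the partner of Racgap1, fell from P6 to P14 by 0.96 (SE 0.12, adjusted p = 4.14e-06). Of 8 tested subunits of the anaphase-promoting complex, 1, 4 and 4 fell, each by less than 0.9, with Anapc5 called in all 3 comparisons (-0.84 from P6 to P23, SE 0.08, adjusted p = 4.43e-09). Of 35 tested S phase and replication genes 13, 17 and 30 fell, with medians of -0.34, -0.44 and -0.73. The S phase genes Tk1, Mcm5 and Lig1 fell from P14 to P23 by 1.10, 0.86 and 1.01 (adjusted p = 1.89e-05, 4.71e-05 and 3.4e-06). In DN-CLIM skin the counts that fell were 4, 7 and 9 of the further mitosis genes, 3, 5 and 7 of the complex, and 12, 22 and 30 of the S phase genes, while 1 of the first rose from P14 to P23 and 1 of the last in each of the intervals P6 to P14 and P14 to P23. Of all tested probe sets, 11.3%, 27.1% and 28.3% fell in the 3 wild-type comparisons and 14.7%, 27.2% and 28.2% in those of DN-CLIM skin. The 1 of 8 subunits of the complex that fell from P6 to P14 in wild-type skin is near that share. Whether the shares of these lists differ from that of the members was not tested.

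Markers of the growing follicle and of other cell types moved over the same ages. Of all tested probe sets in wild-type skin, 11.3% fell and 9.43% rose from P6 to P14, and 27.1% fell and 27% rose from P14 to P23. In wild-type skin 6 of 6 tested hair matrix markers fell from P14 to P23 (median -2.91), and their summed signal went from between 9959 and 10939 at P14 to between 1450 and 1549 at P23. It was 9495 to 11339 at P6, so that from P6 to P14, where 19 members fell, 1 of the 6 fell (median -0.11). Of 8 tested hair shaft keratins, 6 rose from P6 to P14 and 8 fell from P14 to P23, with a summed signal of 89622 to 150240, then 192810 to 221320, then 2103 to 2570. DN-CLIM skin gave the same order, with 8856 to 9962, 9943 to 10694 and 1554 to 1773 for the matrix list. Over the same interval to P23 in wild-type skin, 4 of 4 macrophage markers rose (median 1.62), as did 4 of 5 of skeletal muscle (median 2.03, summed signal 46240 to 56920 at P23 against 19258 to 22828 at P14) and 5 of 6 of dermal fibroblasts (median 1.02). Of the 4 tested basal keratinocyte markers, 3 rose in that interval (median 1.05), with a summed signal over 7 listed markers of 5376 to 5633 at P14 and 10187 to 11230 at P23 in wild-type skin, and 4231 to 4766 and 8186 to 8823 in DN-CLIM skin. From P6 to P14, 4 of 5 suprabasal keratinocyte markers fell (median -1.62) and 3 of 6 of dermal fibroblasts (median -0.50). Between the genotypes 1 basal marker, Col17a1, was lower in DN-CLIM skin at P14 (-0.62, SE 0.11, adjusted p = 0.0149). The lymphocyte markers were all under the limit for testing. The part of these cell types in the members' fall was not tested.

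**Figure D4:**
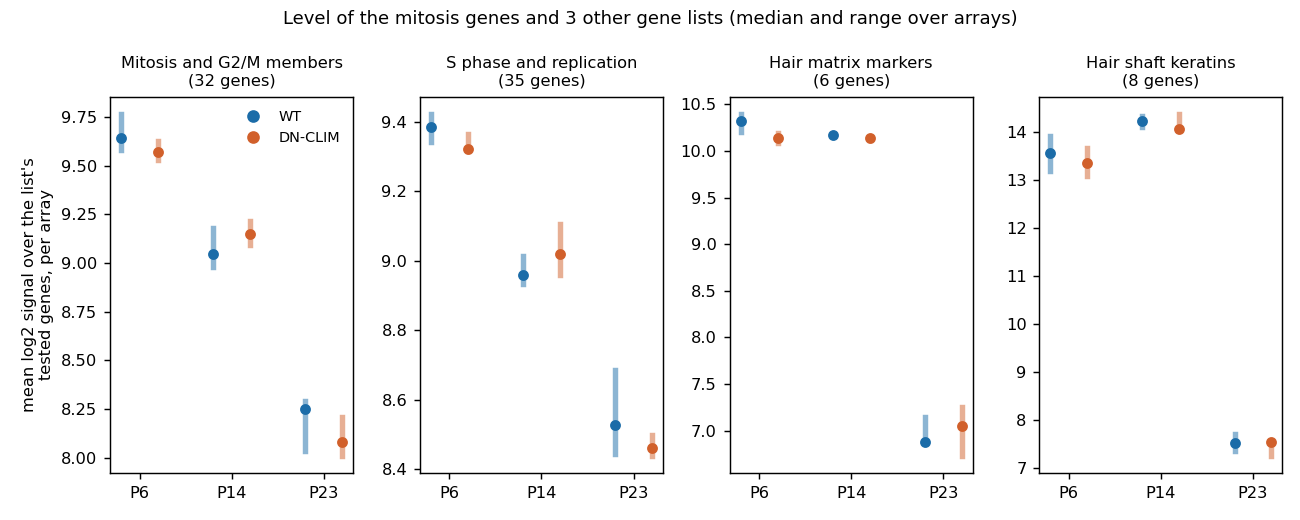
Mean log2 signal over the tested genes of 4 lists (32 members, 35 S phase genes, 6 hair matrix markers, 8 hair shaft keratins) per array, shown as the median (point) and range (bar) over the arrays of each group, each panel on its own scale. The members and S phase genes step down at each age, while the matrix markers and shaft keratins are low at P23 alone, and the genotypes lie close at each age.

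Between DN-CLIM and wild-type skin of one age, no member passed the test. At P6 the count was 0 of 32 (0.0322% of all tested probe sets called in either direction), with 3 at an unadjusted p under 0.05, a median of -0.07 and 21 members below 0. At P14 it was 0 (0.0644% of all), with 3 unadjusted, a median of 0.06 and 12 below 0. At P23 it was 0 (0.161% of all), with 2 unadjusted, a median of -0.06 and 23 below 0. Averaged over the 3 ages it was 0 (0.177% of all), with 4 unadjusted and a median of -0.05. The 95% interval of the difference lay within a 2-fold change either way for 31 members at P6, 30 at P14 and 30 at P23.

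**Figure D5:**
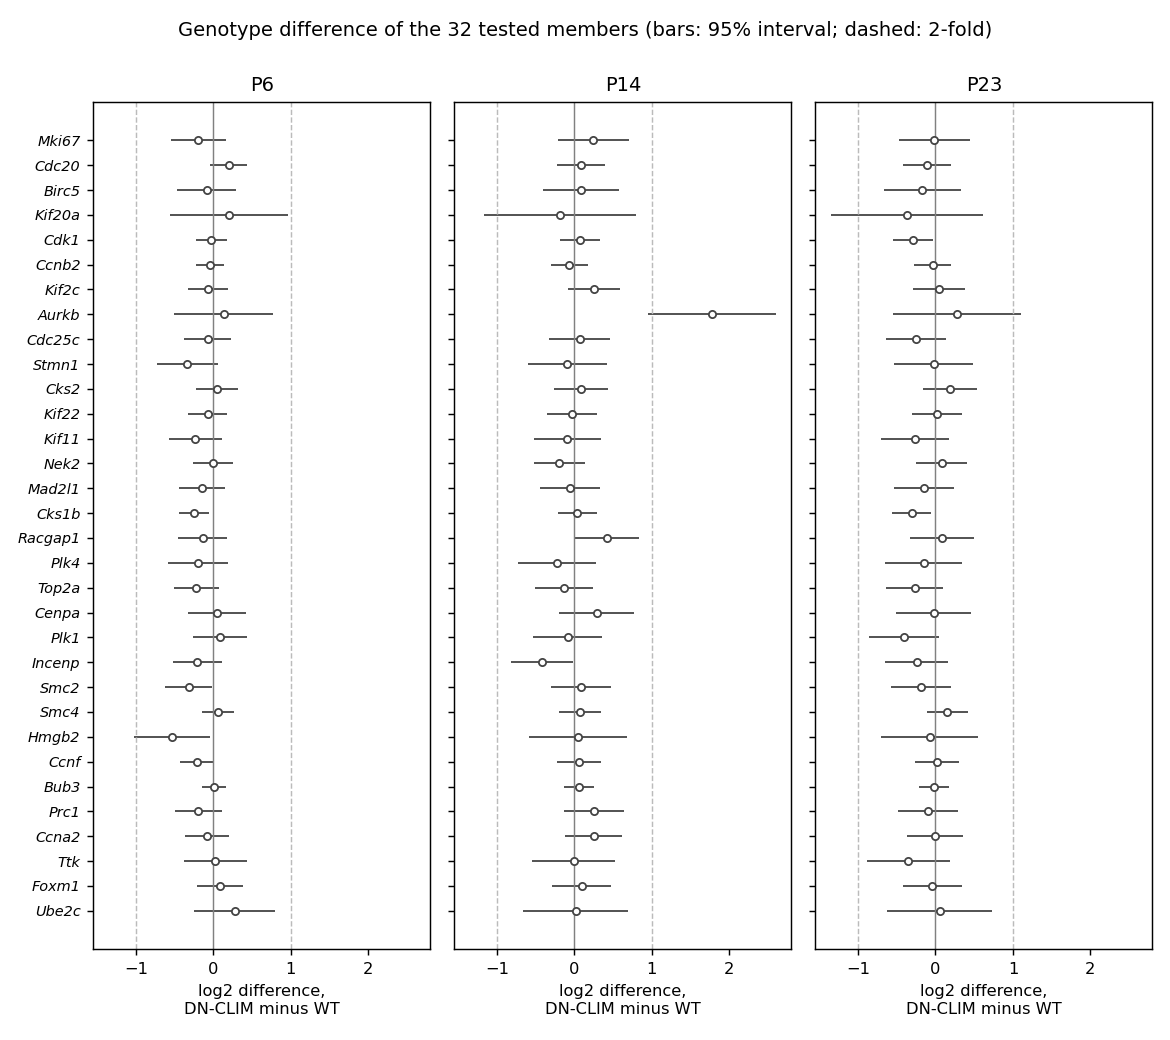
Log2 difference between DN-CLIM and wild-type skin of each tested member at P6, P14 and P23, with its 95% interval; dashed lines mark a 2-fold change. Most intervals cover 0 and stay inside the dashed lines; Aurkb at P14 (1.78) lies apart from the rest.

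Aurkb at P14 was the farthest from 0. The DN-CLIM arrays (8.95, 8.82 and 8.69) were all above the wild-type arrays (8.37, 6.25 and 6.52), a difference of 1.78 (SE 0.40, adjusted p = 0.118) with a 95% interval of 0.95 to 2.60. Without wild-type P14 replicate 1, the one wild-type array close to the DN-CLIM values, the difference was 2.44 and it passed (adjusted p = 0.00127). The average over the 3 ages (0.73, adjusted p = 0.32) and the P14 minus P6 difference of the genotype effect (1.64, adjusted p = 0.583) then passed as well, at 0.95 (adjusted p = 0.00988) and 2.30 (0.0482). At P6 and P23 the Aurkb arrays of the genotypes overlapped.

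Without overlap between the genotypes were 1 member at P6 (0.95% of all tested probe sets), 5 at P14 (15.2%) and 1 at P23 (14.9%). At P6 it was Cks1b, at 10.23 to 10.64 in DN-CLIM and 10.65 to 10.88 in wild-type skin (-0.25, SE 0.09, adjusted p = 0.547). At P14, beside Aurkb, these were Racgap1 (0.42, SE 0.20, adjusted p = 0.78) and Prc1 (0.25, SE 0.19, adjusted p = 0.89), higher in DN-CLIM skin, and Incenp (-0.42, SE 0.19, adjusted p = 0.764) and Nek2 (-0.20, SE 0.16, adjusted p = 0.907), lower. At P23 it was Cdk1, at 7.84 to 8.02 in DN-CLIM and 8.11 to 8.26 in wild-type skin (-0.29, SE 0.13, adjusted p = 0.96). Apart from Aurkb, these members kept their direction and passed under none of the alternatives tried.

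Hmgb2 had the largest difference at P6 (-0.53, SE 0.24, adjusted p = 0.592), followed by Stmn1 (-0.34, SE 0.19, adjusted p = 0.674) and Smc2 (-0.32, SE 0.14, adjusted p = 0.601). Without DN-CLIM P6 replicate 5, the array that stood apart, the Stmn1 difference was -0.053. For Hmgb2, DN-CLIM arrays ran from 7.24 to 8.53 and wild-type arrays from 8.04 to 8.80. Within P6 arrays 4 and 5 alone it was 0.30, the other way. At P23 the largest were Plk1 (-0.41, SE 0.22, adjusted p = 0.999), Kif20a (-0.37, SE 0.47, adjusted p = 0.999) and Ttk (-0.35, SE 0.26, adjusted p = 0.999), with overlapping arrays, and each moved when 1 array was left out. Kif20a was at 0.37 without DN-CLIM P23 replicate 1, and without replicate 2 of that group Plk1 was at -0.11 and Ttk at -0.12.

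The change of the genotype effect between ages was also tested for each member. It gave 0 calls from P6 to P14 (0.0161% of all probe sets), 0 from P14 to P23 (0% of all, 0 of 6211) and 0 from P6 to P23 (0.0161%), with 2, 1 and 0 members at an unadjusted p under 0.05. The 95% interval lay within a 2-fold difference of the 2 falls for 26, 28 and 26 of the 32 members. Those below 0.05 were Aurkb in both intervals (1.64 and -1.49) and Racgap1 from P6 to P14 (0.56). For Cdk1 the change from P14 to P23 differed by -0.36 (DN-CLIM minus wild type), with a 95% interval from -0.73 to 0.0092, and for Cks1b by -0.34, from -0.70 to 0.012. All of the 23 members that fell from P14 to P23 in wild-type skin also fell in DN-CLIM skin (100% of 23 and 92% of 25), where Ccna2 and Aurkb passed in addition. From P6 to P14, 12 members fell in both genotypes (63.2% of 19 and 85.7% of 14). Of all tested probe sets, 27.1% fell in wild-type and 27.2% in DN-CLIM skin from P14 to P23, and 11.3% and 14.7% from P6 to P14. How many of all probe sets fell in both genotypes was not counted, so the shared falls describe the members alone.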

How the data were processed

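RNA was measured on 22 single-colour Affymetrix arrays. The deposited values are MAS5 signal intensity per probe set on a linear scale, named as such in the submitters' processing notes, and the authors' scaling leaves each array at a trimmed mean between 500.25 and 500.34. No detection calls were used here. The number of arrays limits the precision.

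Log2 signals were fitted with limma 3.58.1 in R 4.3.3 (lmFit, eBayes with trend) on 22 arrays in 6 groups, with Benjamini-Hochberg adjustment over 6211 probe sets and a threshold of 0.05. Control probe sets were left out. Platform annotation gave 1 gene to 10833 probe sets, several to 396 and none to 1193; only the first were named. A gene was represented by its brightest probe set. Values on each array are given for members called in a comparison or among the 3 of largest change in one; from other cell cycle lists, called genes of smallest p were named. The members and lists were chosen with earlier results of these data known. Promoters were searched in Python 3.11.15. The fit was tested on simulated data. Alternatives were quantile normalization, no limit on signal, 50 added to each signal, only the groups compared, array weights and every member probe set. Further ones were a replicate block, a term for the P6 arrays 4 and 5, and leaving out each array. The sample titles number the arrays and name no batch, so that term groups arrays by replicate number alone.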

Additional observations from a re-analysis of the deposited data

Results flagged for a closer look

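In groups of 5 arrays, the gap from the highest or lowest array to the next was divided by the range of the whole group. This was done for each tested member and for their mean. In 5 of 66 such groups the ratio was above Dixon's 95% limit of 0.71. Chance gives about 1 in 20. Of the 5, 3 were on DN-CLIM P6 replicate 5, the array with the lowest correlation to its group. There Cenpa was at 10.01 against 9.12 for the next highest array, Plk4 at 9.45 against 9.07, and Stmn1 at 11.06 against 12.43 for the next lowest. Incenp was at 7.97 on DN-CLIM P6 replicate 1, against 8.40 for the next lowest. Aurkb was at 8.78 on wild-type P6 replicate 1, against 9.20 for the next lowest.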

How the results depend on the processing

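No called member changed direction under an alternative. Calls kept under every alternative were 14 of 19, 22 of 23 and 28 of 29 in wild-type skin (P6 to P14, P14 to P23, P6 to P23) and 7 of 14, 23 of 25 and 26 of 29 in DN-CLIM skin. Some calls were lost under other alternatives than leaving out an array. From P6 to P14 these were Ccnf, Bub3 and Cdc20 in wild-type skin and Mki67, Cdk1, Cks1b, Kif2c and Smc2 in DN-CLIM skin. In DN-CLIM skin they were also Incenp from P14 to P23 and Ttk and Ccna2 from P6 to P23. Adding 50 to each signal moved the members' median to -0.88 (P14 to P23) and -1.38 (P6 to P23) in wild-type and to -0.93 and -1.42 in DN-CLIM skin, since the offset shrinks changes of dim probe sets, and put Ttk at 0.0025 in DN-CLIM skin from P14 to P23. With quantile normalization Prc1 was at -0.044 (wild type, P14 to P23), Ube2c at -0.027 (wild type, P6 to P23) and Hmgb2 at -0.053 (DN-CLIM, P6 to P14), each with its sign turned and none called. With array weights Ube2c in DN-CLIM skin was at 0.033, 0.030 and 0.063 in the 3 age comparisons. Within P6 arrays 4 and 5 alone the genotype median was 0.029 and Hmgb2 was at 0.30; the cause was not tested.

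Leaving out 1 array in turn gave the members' median as -1.64 to -1.43 (wild type, P6 to P23), -1.62 to -1.47 (DN-CLIM, P6 to P23), -1.15 to -1.002 (DN-CLIM, P14 to P23) and -0.17 to -0.024 (genotypes at P23), and that of the change in genotype effect as -0.25 to -0.10 (P14 to P23) and -0.036 to 0.088 (P6 to P23). Called members ranged from 9 to 16 (DN-CLIM, P6 to P14) and from 0 to 1 between genotypes at P14, over the 3 ages and for the effect from P6 to P14, each time through Aurkb without wild-type P14 replicate 1. Uncalled members whose sign turned were, in wild-type skin, Foxm1 (-0.11 to 0.16) and Ube2c (-0.047 to 0.25) from P6 to P23, Ube2c (-0.014 to 0.62) and Cenpa (-0.39 to 0.021) from P6 to P14, and Ube2c (-0.54 to 0.092), Aurkb (-0.28 to 0.78), Prc1 (-0.049 to 0.17) and Smc2 (-0.41 to 0.075) from P14 to P23. In DN-CLIM skin they were Ccna2 (-0.067 to 0.14), Cenpa (-0.041 to 0.20), Hmgb2 (-0.12 to 0.21) and Ube2c (-0.16 to 0.12) from P6 to P14, Ttk (-0.24 to 0.23), Foxm1 (-0.088 to 0.21) and Ube2c (-0.33 to 0.23) from P14 to P23, and Ube2c (-0.34 to 0.21) from P6 to P23. Kif20a ranged from -0.90 to 0.37 between genotypes at P23 and from -1.11 to 0.17 for the effect from P6 to P23.

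Same-numbered arrays of the genotypes deviated together at P23 (correlations 0.14, 0.056 and 0.25) but not at P14 (-0.047, 0.029 and -0.035). The 5 correlations at P6 ran from -0.0046 to 0.19. Whether the numbers pair the arrays is therefore unsettled, and the main fit does not pair them. With the replicate block 17, 23 and 29 members fell in wild-type and 13, 25 and 28 in DN-CLIM skin, and 0 differed between genotypes. Low signal kept 6 members out of the test.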
